A study of Mus musculus with 4 samples.

Results

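Of the 63301 accessible regions on chromosomes 1 to 19, 1176 lay within 1 kb of an end of a long noncoding RNA (lncRNA) gene in chromatin away from protein-coding genes. They were chosen by position alone: the region had to overlap no protein-coding gene body, and its nearest one had to be more than 5 kb and at most 200 kb away. They made up 6.73% of the 17483 regions that met the limits on coding genes (called distal below), and 1.86% of all autosomal regions. The other 16307 distal regions lay more than 1 kb from every lncRNA gene end and served as the comparison.

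The regions come from ATAC-seq, an assay that marks open DNA by letting a transposase insert sequencing adapters into it, run on naive CD4+ T cells (quiescent helper T cells before any contact with antigen). The cells came from spleen and lymph nodes of mice labelled DDX55 KO, which lack an RNA helicase of ribosome assembly (2 libraries), and of WT mice (2 libraries); strain, age and the design of the knockout allele are not given in the labels, nor whether the 2 libraries of a genotype came from separate mice. The data analysed here are 1 merged list of regions for all 4 libraries on build mm10, 64525 regions in all, with a position and no value per library. The difference between the knockout and the wild type was therefore not analysed here, the depth of the libraries is unknown, and no spread between libraries can be given. Whether the cells express CD4 T cell markers cannot be checked from positions alone.

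A lncRNA gene makes a transcript that is not translated. Like a coding gene it is read by RNA polymerase II from a promoter, where nucleosomes are displaced and DNA is open; at its 3' end, where transcription stops, open DNA is less usual. Some lncRNA promoters are rich in the dinucleotide CpG and resemble promoters of housekeeping genes, whereas others resemble enhancers, the distant switches of gene expression, which are themselves transcribed. In lymphocytes some lncRNA genes are hosts of microRNAs that restrain growth, and others neighbour cytokine or transcription factor genes.

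Starts covered by an accessible region, and starts with one only nearby, are shown first as examples of the sequences compared below. Each sequence runs from 250 bases before to 50 bases after the annotated start, 5′ to 3′ on the gene's strand, from RefSeq on GRCm38.p6, the assembly that mm10 names; capitals mark CpG dinucleotides. Of the starts covered by an accessible region, the first 4 were CpG-rich (GC content over 50% and a ratio of observed to expected CpG over 0.6 in the 300 bases). Dleu2 is the host of the microRNAs Mir15a and Mir16-1, Chaserr restrains its neighbour Chd2, which encodes a chromatin remodeler, Snhg5 is a host of small nucleolar RNAs, and Lncpint is induced by p53. Their sequences lie at chr14:61682324-61682623, chr7:73558346-73558645, chr9:88522848-88523147 and chr6:31218425-31218724, in this order and each on the minus strand.
Dleu2: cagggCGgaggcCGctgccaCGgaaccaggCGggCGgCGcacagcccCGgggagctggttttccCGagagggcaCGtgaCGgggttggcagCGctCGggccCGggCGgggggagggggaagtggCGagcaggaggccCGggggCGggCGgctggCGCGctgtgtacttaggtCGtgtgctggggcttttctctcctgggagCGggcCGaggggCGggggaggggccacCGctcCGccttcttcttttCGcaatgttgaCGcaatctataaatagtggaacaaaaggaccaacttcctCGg
Chaserr: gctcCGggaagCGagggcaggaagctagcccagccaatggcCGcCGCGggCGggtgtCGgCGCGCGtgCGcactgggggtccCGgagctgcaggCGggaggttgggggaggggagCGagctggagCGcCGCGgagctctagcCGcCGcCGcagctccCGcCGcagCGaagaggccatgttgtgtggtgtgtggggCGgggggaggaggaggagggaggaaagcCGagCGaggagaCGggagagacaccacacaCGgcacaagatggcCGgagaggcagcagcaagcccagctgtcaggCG
Snhg5: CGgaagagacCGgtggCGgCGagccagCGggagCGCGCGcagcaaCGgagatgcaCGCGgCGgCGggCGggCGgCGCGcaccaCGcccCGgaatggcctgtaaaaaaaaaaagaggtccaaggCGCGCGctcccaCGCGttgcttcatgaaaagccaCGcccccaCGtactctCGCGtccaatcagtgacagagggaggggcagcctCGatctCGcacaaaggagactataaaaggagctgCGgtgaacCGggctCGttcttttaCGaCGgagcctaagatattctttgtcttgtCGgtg
Lncpint: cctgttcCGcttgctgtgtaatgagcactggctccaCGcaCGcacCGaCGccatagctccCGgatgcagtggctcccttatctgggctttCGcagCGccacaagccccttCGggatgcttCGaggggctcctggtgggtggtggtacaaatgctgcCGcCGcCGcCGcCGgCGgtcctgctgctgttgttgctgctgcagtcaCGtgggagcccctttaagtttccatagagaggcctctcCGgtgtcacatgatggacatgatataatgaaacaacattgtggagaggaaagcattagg
They held 29, 30, 36 and 18 CpG dinucleotides, in the order printed, and were covered by regions of 2008, 634, 1011 and 615 bp. The region at Chaserr ended at the start itself and lay almost wholly upstream of it.

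Another 4 covered starts were CpG-poor. Mir22hg is the host of the microRNA Mir22 (chr11:75461289-75461588, plus strand), and Morrbid controls the survival of short-lived myeloid cells (chr2:128429302-128429601, minus strand). The numbered genes Gm51814 (chr10:19062529-19062828, plus strand) and 2310001H17Rik (chr6:129238433-129238732, minus strand) lie beside Tnfaip3, which encodes an inhibitor of NF-kB signalling, and Cd69, which encodes an early activation marker of T cells.
Mir22hg: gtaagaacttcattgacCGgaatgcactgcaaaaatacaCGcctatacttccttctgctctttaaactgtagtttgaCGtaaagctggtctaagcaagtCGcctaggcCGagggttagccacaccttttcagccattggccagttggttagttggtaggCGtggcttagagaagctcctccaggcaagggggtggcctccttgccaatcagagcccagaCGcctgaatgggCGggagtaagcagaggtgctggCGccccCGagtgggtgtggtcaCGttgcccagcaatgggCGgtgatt
Morrbid: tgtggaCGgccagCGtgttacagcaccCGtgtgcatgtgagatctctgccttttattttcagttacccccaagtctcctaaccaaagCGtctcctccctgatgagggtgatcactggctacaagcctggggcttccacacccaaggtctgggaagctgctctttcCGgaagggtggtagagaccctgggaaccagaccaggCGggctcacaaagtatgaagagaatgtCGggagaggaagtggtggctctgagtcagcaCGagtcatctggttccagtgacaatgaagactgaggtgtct
Gm51814: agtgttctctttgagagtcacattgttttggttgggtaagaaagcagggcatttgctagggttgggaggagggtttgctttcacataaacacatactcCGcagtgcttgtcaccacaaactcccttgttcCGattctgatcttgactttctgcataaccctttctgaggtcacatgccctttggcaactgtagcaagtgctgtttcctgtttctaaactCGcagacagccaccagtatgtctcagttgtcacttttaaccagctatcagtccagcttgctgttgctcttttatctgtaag
2310001H17Rik: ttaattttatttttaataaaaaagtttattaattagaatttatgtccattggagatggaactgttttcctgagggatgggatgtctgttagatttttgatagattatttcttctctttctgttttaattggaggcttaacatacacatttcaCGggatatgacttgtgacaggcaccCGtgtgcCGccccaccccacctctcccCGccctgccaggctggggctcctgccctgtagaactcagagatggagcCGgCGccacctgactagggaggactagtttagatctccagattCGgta
They held 12, 8, 3 and 7 CpG dinucleotides and were covered by regions of 1596, 561, 1095 and 972 bp, so a wide region was also seen over CpG-poor sequence.

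The last pair of starts had an accessible region within 1 kb that did not cover them. Ifngas1 is an antisense neighbour of the interferon gamma gene (chr10:118556476-118556775, minus strand), and Malat1 makes an abundant RNA of nuclear speckles (chr19:5802623-5802922, minus strand).
Ifngas1: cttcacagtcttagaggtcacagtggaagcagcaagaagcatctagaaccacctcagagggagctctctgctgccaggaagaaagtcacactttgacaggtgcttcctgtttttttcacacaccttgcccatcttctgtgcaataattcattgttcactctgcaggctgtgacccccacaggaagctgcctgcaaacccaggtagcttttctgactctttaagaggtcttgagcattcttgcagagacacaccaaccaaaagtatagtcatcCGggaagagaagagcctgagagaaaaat
Malat1: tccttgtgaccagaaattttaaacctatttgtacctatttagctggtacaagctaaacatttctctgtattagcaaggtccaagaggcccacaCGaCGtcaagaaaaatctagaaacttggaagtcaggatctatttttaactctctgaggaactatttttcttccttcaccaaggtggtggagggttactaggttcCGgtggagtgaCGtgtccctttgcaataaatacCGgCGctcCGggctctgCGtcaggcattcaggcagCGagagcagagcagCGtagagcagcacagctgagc
The nearest region lay 86 bp from the start of Ifngas1 and was 136 bp wide. The nearest region lay 471 bp upstream of the start of Malat1 and was 644 bp wide. The 2 sequences held 1 and 10 CpG dinucleotides.

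Accessible regions were about 2.24 times as dense at distal lncRNA ends as in the rest of the same distal sequence. By region middles, there were 46.4 regions per Mb within 1 kb of a lncRNA end (95% Poisson interval 43.7 to 49.3) and 20.7 per Mb in the remaining 799 Mb (20.4 to 21.0). Set against the sequence 3 to 10 kb away, the excess was at the starts. Around 2443 starts more than 15 kb from a coding gene, in genes of 5 kb or longer, there were 61.8 regions per Mb within 1 kb (55.03 to 69.2), against 25.7 per Mb at 3 to 10 kb on either side, a ratio of 2.41. Around 2556 such 3' ends the density within 1 kb was 28.2 per Mb (23.8 to 33.2), against 26.5 per Mb at 3 to 10 kb, a ratio of 1.06. These 3' ends and the flanks of both kinds of end were still denser than the 20.7 per Mb of the remaining distal sequence. Ends of unknown strand are not in these profiles. The highest 1 kb bin was the first one inside the gene, with 71.2 regions per Mb, followed by the bin just upstream of the start with 52.4 per Mb.

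**Figure D1:**
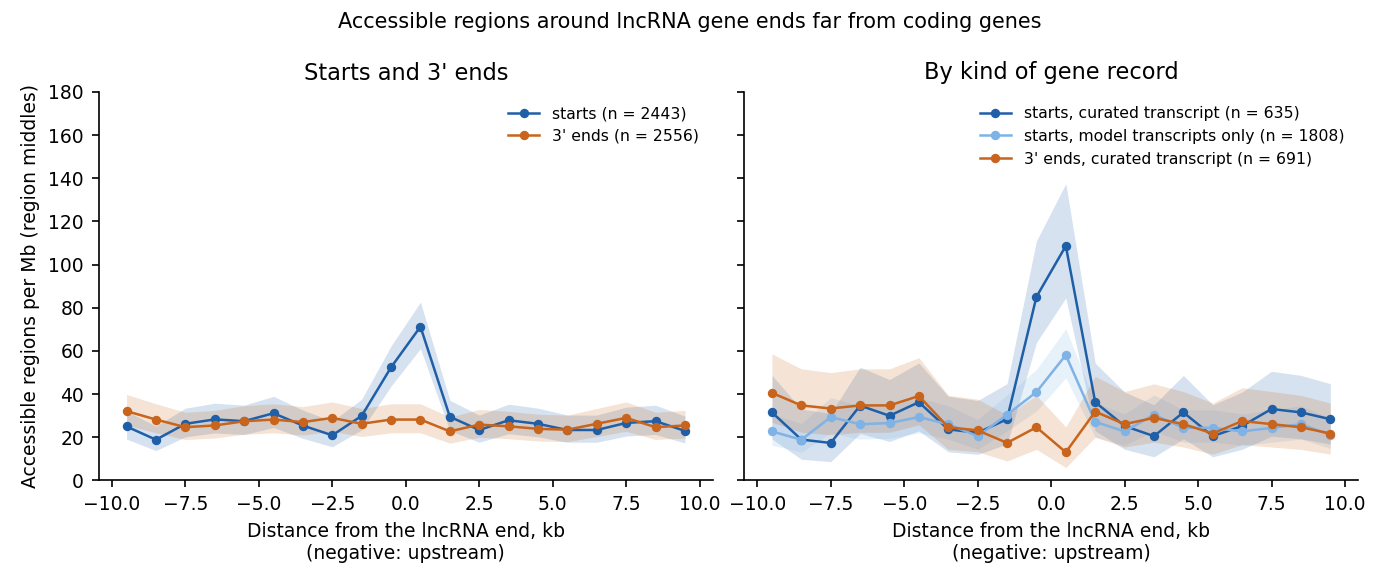
Density of accessible regions (region middles per Mb, y axis, in bins of 1 kb) by distance from the annotated end of distal lncRNA genes in kb (x axis), with Poisson 95% bands. The left panel shows starts and 3' ends. The right panel shows starts of genes with a curated transcript, starts of models and 3' ends of genes with a curated transcript. The 3' ends of models are not drawn there. The starts peak at 71.2 per Mb just inside the gene, the 3' ends of all genes together show no such peak, and starts of genes with a curated transcript stand above those of models.

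The kind of gene record separated the starts further. RefSeq genes carry either a curated transcript or only transcripts predicted by computer (models). Starts of curated genes had 96.9 regions per Mb within 1 kb (80.5 to 115.6, n = 635 starts), against 27.3 per Mb at 3 to 10 kb, a ratio of 3.54. Starts of model genes had 49.5 per Mb (42.5 to 57.3, n = 1808), against 25.1 per Mb at 3 to 10 kb, a ratio of 1.97. At 3' ends of curated genes the density was 18.8 per Mb (12.3 to 27.6), below the 29.9 per Mb of their flanks, and at those of models it was 31.6 per Mb (26.2 to 37.9), above the 25.2 per Mb of their flanks. The flanks pool both sides of the end. For curated genes the 1 kb bins at 3 to 10 kb held 24.6 to 40.5 per Mb on the gene side. Beyond the gene they held 21.7 to 28.9 per Mb, a range that overlaps the interval at the 3' ends.

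Counted by gene end, a region lay within 1 kb of 593 of 4401 distal starts (13.5%, 95% exact binomial interval 12.5 to 14.5%) and of 354 of 4742 distal 3' ends (7.47%, 6.73 to 8.25%), 1.805 times as often at starts. The intervals cover counting error over ends only; neighbouring regions, and the 2 ends of a gene, are not independent. The contrast was sharper where the region had to cover the end: 6.11% of starts were covered (5.42 to 6.86%) and 1.202% of 3' ends (0.912 to 1.55%), 5.08 times as often at starts. Curated genes had a region at 20.8% of distal starts (18.5 to 23.4%) and 6.21% of distal 3' ends (4.94 to 7.67%). Model genes had one at 11.04% of distal starts (9.99 to 12.2%) and 7.93% of distal 3' ends (7.05 to 8.88%).

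Most distal lncRNA ends nevertheless had no region in the list. Of all 12005 distal ends, 1227 had a region within 1 kb (10.2%, 9.68 to 10.8%), against 14.3% of all 24816 autosomal lncRNA ends. The ends within 5 kb of a coding gene or inside one had a region in 21.4% of cases (20.6 to 22.2%), and the ends over 200 kb away in 4.35% (3.57 to 5.25%). For starts alone the shares were 13.5% of the distal ones and 32.0% of those near or in coding genes (30.6 to 33.5%). Of 6964 lncRNA genes with a distal end, 1119 had a region at one (16.1%, 15.2 to 17.0%). The share was 22.7% among the 242 distal genes whose symbol is not a Gm, LOC or Rik number (17.6 to 28.5%). It was 15.8% among the 6722 with such a number (14.96 to 16.7%). Some of the 242, such as AY036118, are also known by the number of a sequence only. By length, the share was 19.7% of genes up to 3 kb long and 11.9% of those over 30 kb.

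The 1176 regions lay at ends of 1099 lncRNA genes. With a region counted for each gene that had an end within 1 kb of it, 978 of these genes had 1 region, 112 had 2, 8 had 3 and 1 had 4. Of the regions, 611 lay within 1 kb of a start (some short genes had both ends that near), 295 at a 3' end only and 270 at an end of a gene whose strand the tables do not give. The gene's end lay inside the region for 379, and the median distance from region to end was 222.5 bp. The region overlapped the body of a lncRNA gene in 868 cases and lay outside in 308. A second lncRNA gene had an end within 1 kb in 52 cases, and 1 region had 3 such genes; 23 regions served the starts of a pair of genes that ran in opposite directions. Genes with a Gm, LOC or Rik number accounted for 1116 of the regions (94.9%), and for most of them no function can be given. Such a number was carried by 6722 of the 6964 lncRNA genes with a distal end, so the share is near the background.

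Regions at distal lncRNA ends were wider than other distal regions. Their median width was 369 bp (95% interval of the median 340 to 390, quartiles 228 and 644 bp, range 81 to 5833), against 259 bp (257 to 262) for the other distal regions, a ratio of 1.42. Of the regions at lncRNA ends, 36.8% were 500 bp or wider (34.1 to 39.6%), against 16.6% of the other distal regions (16.0 to 17.1%). A wider region reaches an end from further away, which alone favours wide regions; when the middle of the region had to lie within 1 kb the median was 351.5 bp and the ratio 1.35. The other distal regions inside lncRNA genes had a median of 273 bp (266 to 279) and those outside them 257 bp (254 to 260), so lying in a lncRNA gene away from its ends went with little added width.

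Within the set, starts carried the wider regions. The median was 415 bp at starts (377 to 456), 321 bp at 3' ends (279 to 362) and 328.5 bp where the strand was not known (300 to 375). Regions at starts of curated genes had a median of 530 bp (445 to 615, n = 233), against 369 bp (317 to 408, n = 378) at starts of models. The 23 regions at opposed starts had a median of 753 bp (448 to 890). Regions that covered the end had a median of 634 bp (591 to 680) and those 1 to 1000 bp away 291 bp (277 to 308), a difference to which the reach of wider regions also adds. Regions at lncRNA ends near or in coding genes had a median of 639 bp (614 to 666) and regions at ends of coding genes one of 715 bp (706 to 723). The distal starts and 3' ends lay below both, whereas the intervals of the opposed starts and of the regions over an end overlapped that of 639 bp. Regions over an end are a narrower choice than the set of 639 bp, which takes any region within 1 kb. At covered starts alone, the median widths were 699 bp for distal lncRNA genes, 896 bp for lncRNA genes near or in coding genes and 865 bp for coding genes.

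**Figure D2:**
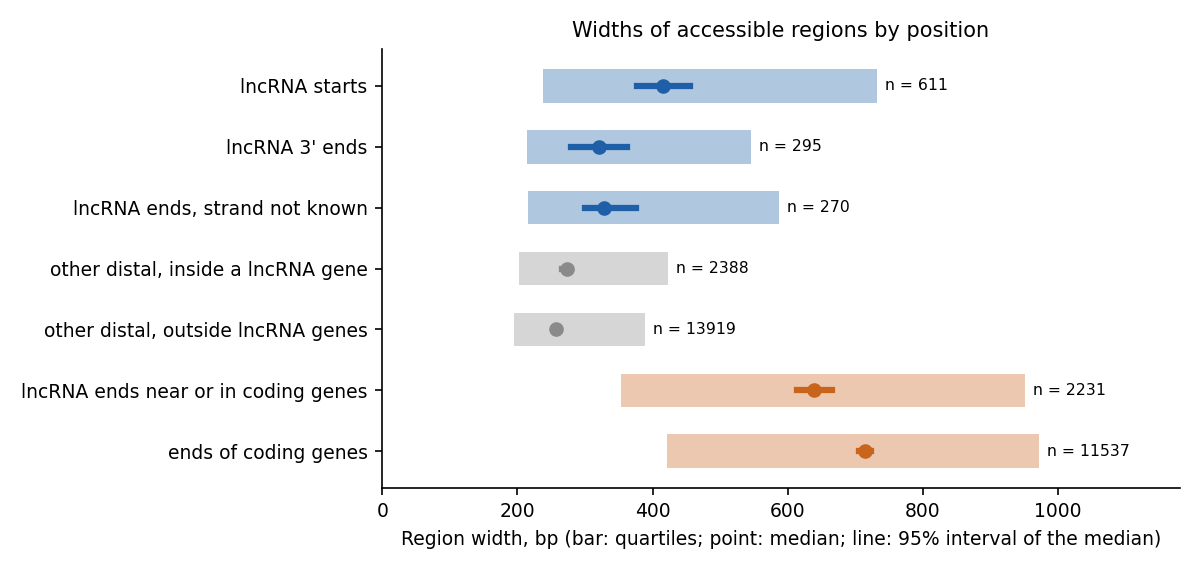
Region width in bp (x axis) by position: blue, regions at distal lncRNA ends; grey, other distal regions; orange, regions near or in coding genes. Bars span the quartiles, points give medians and thick lines their 95% intervals; medians fall from 415 bp at lncRNA starts to 257 bp for distal regions outside lncRNA genes and are 715 bp at ends of coding genes.

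The difference in width had the same direction on 19 of 19 autosomes. The ratio of medians ran from 1.10 on chromosome 18, with 282 bp at lncRNA ends and 256.5 bp elsewhere, to 2.01 on chromosome 11, with 530.5 bp at lncRNA ends and 263.5 bp elsewhere. The medians of the other distal regions varied little between chromosomes, while those at lncRNA ends were lowest on chromosomes 18, 8 and 14. Each chromosome held between 31 regions at lncRNA ends (chromosome 19) and 105 (chromosome 2). They made up between 4.76% (chromosome 7) and 9.14% (chromosome 5) of the distal regions.

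**Figure D3:**
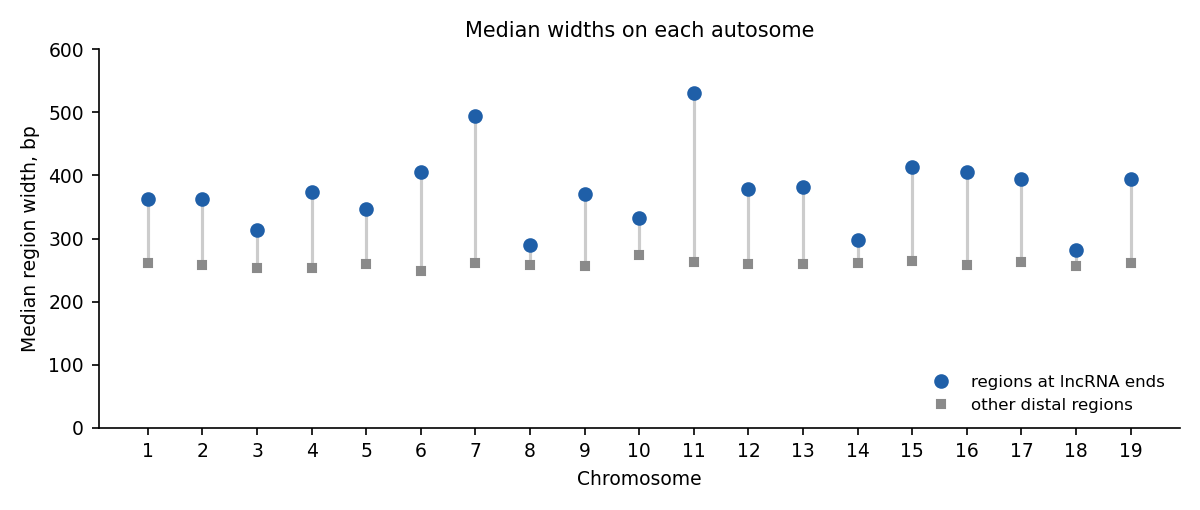
Median region width in bp (y axis) on each autosome (x axis) for regions at distal lncRNA ends (circles) and the other distal regions (squares). The circles lie above the squares on all 19 chromosomes, by the widest margin on chromosome 11 and the narrowest on chromosome 18.

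Distance to the nearest coding gene went with both number and width. The regions at lncRNA ends had a median distance of 27.8 kb to the nearest coding gene, against 33.9 kb for the other distal regions. They made up 7.72% of distal regions at 5 to 10 kb (6.74 to 8.79%), 7.32% at 10 to 20 kb, 8.45% at 20 to 50 kb, 5.53% at 50 to 100 kb and 4.03% at 100 to 200 kb (3.38 to 4.76%). Their median width was 401.5 bp in the nearest of these classes and 333.5 bp in the farthest, against 278 and 239 bp for the other distal regions, so they were the wider set at every distance. Other regions were also close by more often: 38.9% of the regions at lncRNA ends had no other region within 10 kb (36.1 to 41.7%), against 52.1% of the other distal regions (51.4 to 52.9%). The number of regions within 10 kb averaged 1.07 ± 1.24 for regions at lncRNA ends (SD over 1176 regions) and 0.818 ± 1.197 for the other distal regions (SD over 16307 regions).

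The sequence at the start differed between covered and uncovered distal starts. Of 275 distal starts covered by a region (at the first listed start of each gene), 75 were CpG-rich (27.3%, 22.1 to 32.9%), against 81 of 4138 uncovered ones (1.96%, 1.56 to 2.43%). With a region within 1 kb of the start in place of over it, the share was 14.5% of 595 starts (11.7 to 17.5%), against 1.83% of the 3818 others (1.43 to 2.31%). Median GC content was 53.0% at covered and 47.0% at uncovered starts, and the median ratio of observed to expected CpG was 0.426 at covered and 0.206 at uncovered ones. Read the other way, a region covered 48.1% of 156 CpG-rich distal starts (40.02 to 56.2%) and 4.70% of 4257 CpG-poor ones (4.08 to 5.38%). Covered starts of lncRNA genes near or in coding genes were CpG-rich in 75.7% of 853 cases (72.7 to 78.6%) and covered starts of coding genes in 76.9% of 7501 (75.9 to 77.9%). Thus 200 of the 275 covered distal starts were CpG-poor, a makeup unlike that of the other 2 sets.

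Regions over CpG-rich distal starts had a median width of 824 bp (708 to 934) and those over CpG-poor ones 629 bp (561 to 719), with intervals that overlapped slightly. Over coding starts the medians were 888 bp for CpG-rich sequence and 795 bp (775 to 814) for CpG-poor sequence. At equal CpG class, distal CpG-rich starts were covered less often (48.1%) than CpG-rich starts of lncRNA genes near coding genes (63.8%, 60.8 to 66.8%) or of coding genes (74.6%, 73.6 to 75.6%). Of CpG-poor starts, 4.70% of the distal ones were covered, 6.91% of those of lncRNA genes near coding genes (6.03 to 7.88%) and 19.9% of those of coding genes (19.03 to 20.7%).

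**Figure D4:**
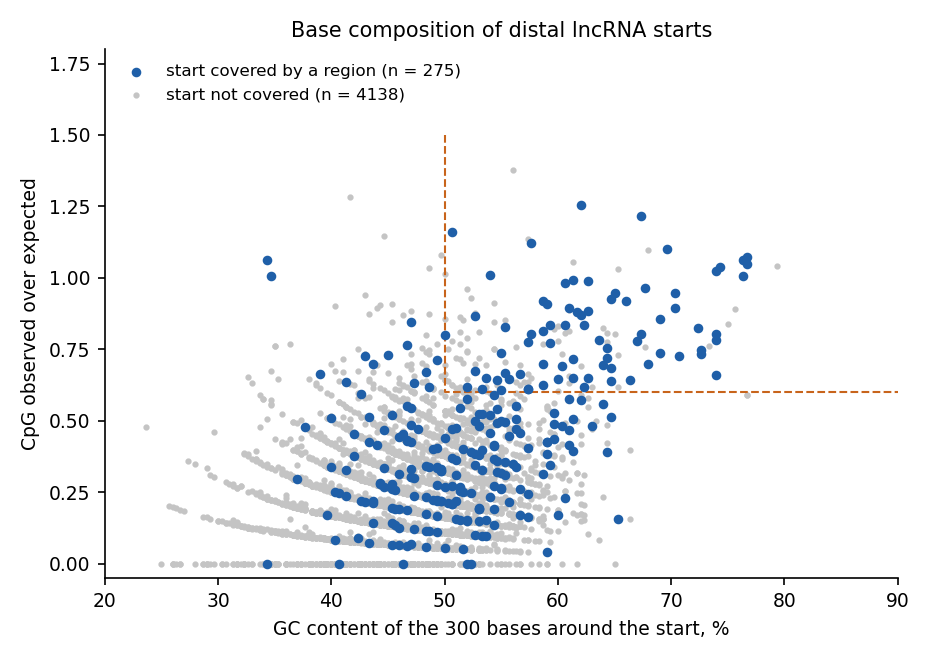
GC content in percent (x axis) and ratio of observed to expected CpG (y axis) in the 300 bases around each distal lncRNA start; blue points are the 275 starts covered by an accessible region, grey points the 4138 others, and the dashed corner encloses the CpG-rich class. Covered starts reach further into the CpG-rich corner (27.3% of them) than uncovered ones (1.96%).

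Searched on both strands of the 300 bases, 17 short motifs were compared between covered and uncovered distal starts, beginning with those that contain CpG. GGGCGG, read by the SP and KLF factors, was in 35.6% of covered starts (30.0 to 41.6%) and 7.83% of uncovered ones (7.03 to 8.69%), beside 36.3% of all 25747 promoters in the table. CCGGAAG, a core read by ETS factors, was in 9.09% of covered (5.97 to 13.1%) and 2.83% of uncovered starts (2.34 to 3.38%), beside 9.30% of all promoters. CGCANGCG, read by NRF1, was in 6.55% of covered (3.93 to 10.1%) and 0.846% of uncovered starts (0.590 to 1.17%), beside 8.54% of all promoters. Within CpG-poor starts, GGGCGG was in 21.0% of covered and 7.10% of uncovered ones, CCGGAAG in 7% of covered and 2.69% of uncovered ones, and CGCANGCG in 3.5% of covered (1.42 to 7.08%) and 0.690% of uncovered ones (0.459 to 0.996%). Within CpG-rich starts, GGGCGG was in 74.7% of covered (63.3 to 84.0%) and 44.4% of uncovered ones (33.4 to 55.9%). The intervals overlapped there for CCGGAAG, with 14.7% of covered (7.56 to 24.7%) and 9.88% of uncovered ones (4.36 to 18.5%), and for CGCANGCG, with 14.7% of covered (7.56 to 24.7%) and 8.64% of uncovered ones (3.55 to 17.0%). The CRE motif TGACGTCA was in 2.55% of covered starts (1.03 to 5.17%) and 0.652% of uncovered ones (0.430 to 0.948%), beside 1.90% of all promoters. Its intervals overlapped within the CpG-poor class and within the CpG-rich class. A match is a description of the letters, not a bound site, and how far base composition accounts for these differences was not tested.

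For the motifs of RUNX, TCF and LEF, GATA and interferon regulatory factors the intervals of covered and uncovered distal starts overlapped. TGTGGT, read by RUNX factors, was in 23.6% of covered starts (18.7 to 29.1%) and 22.3% of uncovered ones (21.0 to 23.6%). CTTTGA, read by TCF and LEF factors, was in 17.8% of covered (13.5 to 22.9%) and 20.5% of uncovered starts (19.3 to 21.8%). AGATAA, read by GATA factors, was in 13.1% of covered (9.34 to 17.7%) and 16.3% of uncovered starts (15.2 to 17.5%). GAAANNGAA, read by interferon regulatory factors, was in 13.1% of covered (9.34 to 17.7%) and 10.3% of uncovered starts (9.39 to 11.3%). In all promoters these 4 motifs were in 16.8%, 16.1%, 11.4% and 8.52%. TATAAA, the TATA box, was in 11.3% of covered starts (7.79 to 15.6%) and 17.2% of uncovered ones (16.1 to 18.4%). AGNNGGC, a part of the CTCF motif, was in 58.5% of covered (52.5 to 64.4%) and 48.4% of uncovered starts (46.8 to 49.9%). For TATAAA and AGNNGGC the intervals did not overlap, and TATAAA was in 14.2% and AGNNGGC in 59.2% of all promoters. Within the CpG-poor class and within the CpG-rich class, however, the intervals overlapped for both motifs. Among CpG-poor starts TATAAA was in 11% of covered (7.02 to 16.18%) and 17.3% of uncovered ones (16.15 to 18.5%). AGNNGGC was there in 55% of covered (47.8 to 62.02%) and 48.04% of uncovered ones (46.5 to 49.6%). The rest of the 17 motifs were CCAAT (NFY), AAGATGGC (YY1), TGANTCA (AP-1), TTCNNNGAA (STAT), GGGANTTCC (NF-kB) and the E-boxes CAGCTG and CACCTG. For each of them the intervals of covered and uncovered distal starts overlapped.

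A list of 49 known noncoding RNA genes showed which named lncRNA ends were open. Of its entries 45 were in the gene table, 43 as lncRNA genes, and 31 of these had an end at the required distance from coding genes. Of the 31, 14 had a region at an end that itself met the limits on coding genes. Among all 6964 lncRNA genes with a distal end, 16.1% had a region at one, and among the 242 without a Gm, LOC or Rik number 22.7%. Those 2 shares also count regions that reach within 5 kb of a coding gene. Besides Dleu2, Chaserr, Snhg5, Lncpint, Mir22hg and Morrbid, the start was covered at Oip5os1, which binds the microRNA miR-7, by a region of 779 bp (chr2:119593991-119594769). Norad, whose RNA binds Pumilio proteins, had a 375 bp region over its end at chr2:156392685-156393059, where the strand is not given. The other 6 had a region beside the end: the 2 regions at Ifngas1 were 136 and 326 bp wide, that at Malat1 644 bp and that at Neat1, a scaffold of paraspeckles, 425 bp and 988 bp from the end. Neat1 also had a region of 901 bp over its other end, 5.49 kb from the nearest coding gene, which was not counted because the region itself reached within 5 kb of that gene. Pvt1, the neighbour of Myc, had a 693 bp region 482 bp from its end, Halr1, near the Hoxa genes, a 181 bp region 275 bp inside the gene, and Lncenc1, described in naive embryonic stem cells, a 268 bp region 786 bp inside it. The covered starts carried wide regions, but the regions beside the ends of Malat1 (644 bp) and Pvt1 (693 bp) were wide as well. The region over the end of Norad had only 375 bp. A wide region also covers a start more easily. At Halr1, Lncenc1 and the start of Ifngas1 the regions were near or below the median of the other distal regions.

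**Figure D5:**
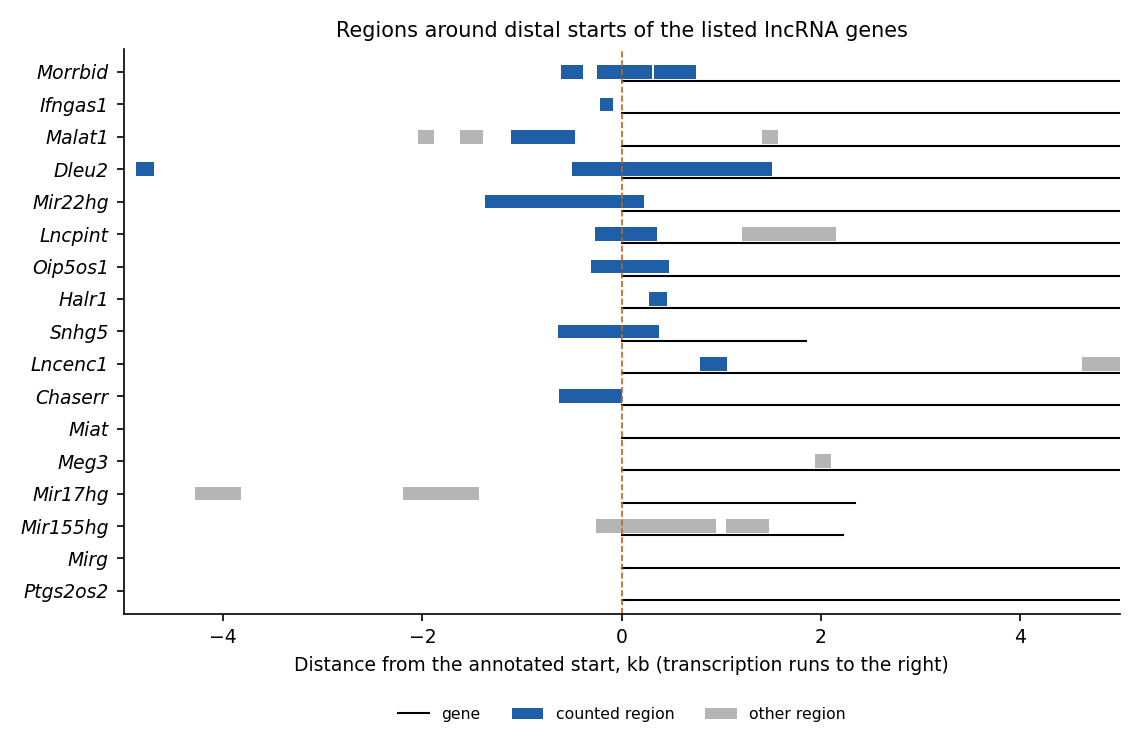
Accessible regions (boxes) within 5 kb of the distal start of each listed lncRNA gene whose strand is known, by distance from the start in kb (x axis), with the gene as a black line running to the right. Blue boxes are regions at distal lncRNA ends, grey boxes other regions; the blue box 4.7 kb upstream of Dleu2 lies at the end of the neighbouring Gm35196. Regions cross the start at Morrbid, Dleu2, Mir22hg, Lncpint, Oip5os1, Snhg5, Chaserr and Mir155hg.

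The 17 listed genes with a distal end and no counted region included imprinted, developmental and lymphocyte loci. No region at all lay in 12 of them: Miat, H19, Mir17hg, Fendrr, Carmn, Hotair, Dlx6os1, Rian, Mirg, Ptgs2os2, Pantr1 and Trp53cor1. H19, Rian and Mirg are imprinted, Fendrr and Carmn act in the heart and vessels, and Hotair lies in the Hoxc cluster. Mir17hg, the host of a microRNA cluster that promotes lymphocyte growth, had no region at its annotated start, and the nearest upstream one ended 1.43 kb before it. Tug1 and Lockd were open at starts too close to a coding gene to be counted (0.375 and 3.57 kb), with regions of 1009 and 1200 bp over them. Mir155hg, the host of a microRNA needed by activated lymphocytes, had a region of 1205 bp over a start 5.26 kb from the nearest coding gene, but the region itself reached within 5 kb of that gene. Meg3 and Sox2ot had 1 region each inside the gene and none at a distal end. The remaining 12 listed genes had no end at the required distance, among them Gas5, Airn, Kcnq1ot1 and Snhg1.

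Of the 1099 genes, 13 held an annotated microRNA gene. The share among all distal lncRNA genes is not given here, so this count is no result about the set. Mirc35hg, the host of Mir96, Mir182 and Mir183, had a 1243 bp region over its start, whereas Lincmd1, the host of the muscle microRNAs Mir133b and Mir206, had a 209 bp region 202 bp beyond its 3' end. E130102H24Rik, the host of Mir101a, had regions of 127 and 701 bp at its start. Regions over a small RNA gene numbered 21, of which 16 were over a transfer RNA gene, 4 over a small nuclear RNA gene and 1 over a small nucleolar RNA gene. The share among the other distal regions is likewise not given. The median width of the 21 regions was 1043 bp (766 to 1174). Dancr, the host of Snora26, had a 929 bp region over its start. In such places the lncRNA end and the small RNA gene share 1 region, and which of them the open DNA belongs to cannot be told apart. Without the regions over small RNA genes or pseudogenes the median width was 363 bp.

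By width, the 10 widest regions at lncRNA ends ran from 1691 to 5833 bp. The widest, at AY036118 (chr17:39842997-39848829), overlapped the ribosomal RNA pseudogene Rn18s-rs5. Next came 2700054A10Rik (2519 bp), Gm35239 (2348 bp, over small nuclear RNA genes at the start of an opposed pair with 1700031P21Rik), Gm51701 (2249 bp), 4930417O13Rik (2016 bp) and Dleu2 (2008 bp). The others were 2410080I02Rik (1880 bp), C330008A17Rik (1831 bp), Gm32700 (1709 bp) and Gm41113 (1691 bp). The narrowest regions lay at Gm31006 (81 bp), B020018J22Rik (84 bp) and Gm40914 (91 bp), each 445 to 721 bp from the gene's end. Most of the widest lay over an end and the narrowest beside one, which width alone favours, since a wider region reaches an end more easily. The regions at 2700054A10Rik and C330008A17Rik lay 900 and 111 bp from the end.

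By number, 1810006J02Rik had the most, with 4 regions of 236 to 495 bp in a row upstream of and over its start (gene at chr1:98131467-98144655, 34.2 to 35.6 kb from Pam). Morrbid had 3 around its start, of 220, 561 and 426 bp (chr2:128428603-128429960). 2310001H17Rik had regions of 972 and 566 bp at its start and one of 156 bp at its 3' end. Gm19497 is 0.908 kb long, so a region can lie within 1 kb of both its ends. It had a region of 620 bp over its start, one of 300 bp over its 3' end and one of 212 bp 867 bp beyond that end. The other genes with 3 were Gm9732, Gm41027, Mirt1, 5330413P13Rik and Gm40770, with widest regions of 614, 539, 437, 262 and 206 bp. Gm51701, near the chemokine receptor gene Ccr1, followed with 2, of 2249 bp at its start and 1033 bp at its 3' end.

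Distal lncRNA ends near T cell genes were no more frequent than distal regions near T cell genes in general. For 29 of the 1176 regions (2.47%, 1.66 to 3.52%) the nearest coding gene was on a list of 68 T cell genes, beside 2.26% of all 17483 distal regions. This share is near the background and is no result about lncRNA ends. The 29 regions lay beside 17 of the genes and had a median width of 326 bp, against 317.5 bp for the other distal regions beside listed genes. The widest were at the 3' end of Gm41950, 38.6 kb from Cxcr4, a chemokine receptor gene (1145 bp), at the start of Gm51814 (1095 bp, 46.5 kb from Tnfaip3) and at that of 2310001H17Rik (972 bp, 28.8 kb from Cd69). Gm27162, 170.6 kb from Ets1, had a 739 bp region over an end, and Gm52735, 79.5 kb from the orphan receptor gene Nr4a3, a 710 bp region 170 bp from its start. Beside genes of the naive state, Gm30217 had a 327 bp region over an end (35.1 kb from Tcf7), Gm32249 regions of 394 bp over its start and 204 bp near its 3' end (13.1 and 21.6 kb from Ccr7), and 4930465M20Rik a 308 bp region 490 bp from its start (175.4 kb from Bcl11b). The nearest coding gene need not be the one such a region acts on.

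The limits of the rule split places that differ little. At 1 kb from a lncRNA end, the last regions counted lay 1000, 999 and 997 bp away and were 175, 236 and 200 bp wide, and the first 3 left out lay 1003 bp away and were 534, 230 and 547 bp wide. At 5 kb from a coding gene, the last counted lay 5001, 5003 and 5009 bp away with widths of 794, 161 and 200 bp, and the first left out 4999, 4982 and 4981 bp away with widths of 527, 255 and 150 bp. At 200 kb the last counted lay 198432, 197790 and 196836 bp away, and the first left out 200022, 200027 and 200158 bp away.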

How the data were processed

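Each library was made from naive CD4+ T cells with a transposase kit and sequenced as read pairs, per the labels' protocols. The tools in the submitters' processing notes are MACS3 3.0.0b1, SAMtools 1.15.1, Bowtie2 and fastp 0.12.4, with build mm10. Not given in the sources used here: their settings, the handling of duplicates and cut offsets, the peak threshold, any exclusion list and the way peaks of the 4 libraries were merged. The deposited list gives start and end positions, and a region was counted whether 1 or all libraries supported it. Wider regions may be merged peaks.

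Positions were converted to 1-based and set against the RefSeq gene table of GRCm38.p6. A gene's start and 3' end came from the strand in the RefSeq promoter table, which 9291 of 12408 autosomal lncRNA genes have (74.9%). Start sequences came from that table; none on chromosome 18 is in it. A genome sequence was not used here, so motifs were counted at starts and not within regions as planned. Shares carry exact Clopper-Pearson 95% intervals, densities Poisson ones and medians order-statistic ones; no test was run, since regions are not replicates. Distances and classes were tested on 778 placed regions, and all 778 came out right.

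Named genes were the 10 with the most regions, the 10 widest and 3 narrowest regions, and members of the list of 49 noncoding RNAs and of 68 T cell genes; microRNA hosts, Dancr and the genes whose sequences are printed as examples were picked after their values were seen. The members and lists were chosen with earlier results of these data known. Of the listed entries, Mir142hg, Gm2682, Th2lcrr and Linc-Cox2 had no match, and Rmrp and Terc are not lncRNA genes in the table. Analyses used Python 3.11.15, pandas 2.3.3, NumPy 2.4.6, SciPy 1.17.1 and matplotlib 3.10.9.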

Additional observations from a re-analysis of the deposited data

Results flagged for a closer look

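Chromosome X lay outside the rule and was used in no comparison. By the same limits it held 22 regions at distal lncRNA ends, of 258 distal regions (8.53%), with a median width of 465.5 bp against 289.5 bp for the other distal regions there.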

How the results depend on the processing

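The number and width of the regions, the shares of genes, starts and 3' ends, the density ratio and the CpG-rich share of covered starts were recomputed. The ratios of width, density and starts to 3' ends stayed above 1, and 73 of 106 recomputed values stayed within their intervals or 1.5 times the count. Not all of these could move: the density ratio is counted by region middles in any case, so the setting by middles leaves it as it was. With a window of 500 bp the median width was 414.5 bp and its ratio 1.59, the share of distal genes 11.4%, the density ratio 2.63, the shares of starts and 3' ends 10.2% and 4.07% and their ratio 2.51. With 2 kb the share of genes was 22.8%, the density ratio 1.88, the shares of starts and 3' ends 18.7% and 12.8% and their ratio 1.45. By region middles the share of genes was 14.4%, the shares of starts and 3' ends 12.4% and 6.14% and their ratio 2.03. With only lncRNA genes whose symbol is not a Gm, LOC or Rik number there were 60 regions, with a median of 633 bp. The width ratio was then 2.41, the share of genes 22.7% and the density ratio 3.38. For these genes the shares of starts and 3' ends were 27.6% and 9.68%, with a ratio of 2.86. A minimum coding distance of 10 kb gave a share of genes of 15.03%, a maximum of 100 kb a share of starts of 14.8%, and no maximum shares of 15.06% of genes and 12.05% of starts. With X the density ratio was 2.41. Genes of 5 kb or longer had a region at 6.45% of 3' ends, and the ratio was 2.06. Chosen after seeing the data, a region within 1 kb of the start in place of over it gave 14.5% CpG-rich starts, and stricter limits (55% and 0.65) gave 20%. Wider windows take in more sequence by construction; for the other values the cause was not tested. The contrasts of curated and model genes, the profiles, motifs, neighbours and chromosomes were not recomputed.

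The planned count of motifs in the central 300 bp of each region was not run. No paired analysis was possible because the list has no value per library. The list shows neither how open a region was nor in which genotype or library it was found, and an end without a region is only one without a peak at the authors' threshold. Strand is known for 74.9% of lncRNA genes, and many are models whose ends are uncertain.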
